A study of Mus musculus with 2 samples.

Results

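A set of 10 genes of TGF-beta signaling was followed in the nuclei of injured mouse bone, out of the 32285 genes counted. They were chosen by name as 4 ligand genes (Tgfb1, Tgfb2, Tgfb3 and Inhba), 3 receptor genes (Tgfbr1, Tgfbr2 and Tgfbr3) and 3 genes of latency and matrix (Ltbp1, Ltbp2 and Tgfbi), and all 10 were in the count tables of both libraries. One library was made from the activated periosteum and hematoma of tibias collected 1 day after a fracture. The other was made from the periosteum, hematoma and callus of tibias collected 5 days after a musculoskeletal traumatic injury (MTI), in which soft tissue lesions lie next to the fracture. Both came from untreated wild-type C57BL6 mice (the methods list C57BL/6ScNj), injured at 10 to 14 weeks of age with males and females mixed per the methods of the study. The tissue of 3 or 4 animals was pooled into each library, so there was no replicate and no test was run. The libraries differed in both the day and the kind of injury, whose parts cannot be told apart, and they were not compared with each other.

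TGF-beta ligands are secreted as latent complexes, in which the propeptide holds the growth factor and is itself bound to a latent TGF-beta binding protein (LTBP) of the matrix or to an anchor on the cell surface. Integrins and thrombospondin release the ligand. It then binds the type II receptor TGFBR2, which activates the type I receptor TGFBR1, and the SMAD proteins carry the signal to the nucleus. In bone repair the pathway is known for its part in the recruitment of progenitors, in cartilage formation and in fibrosis. The question here was which populations held the mRNA of the ligands and which held that of the receptors and of the latency genes.

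The MTI library held 5899407 UMIs (unique molecular identifiers, 1 for each RNA molecule captured) in 1446 barcodes, of which 1127 nuclei were kept with a median of 2364 UMIs. The day 1 library held 9389014 UMIs in 48987 barcodes, of which 2405 nuclei were kept with a median of 409 UMIs. A total of 33 barcodes occurred in both libraries, 15 of them among the kept nuclei. Doublets were in effect not removed, because the doublet caller marked 3 nuclei of the MTI library and 1 of the day 1 library. Clusters were named from marker genes, and the 10 genes and the other pathway genes were left out of the clustering.

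In the MTI library, 285 nuclei were macrophage-like, 181 skeletal lineage-like (skeletal stem/progenitor cells, injury-induced fibrogenic cells, chondrocytes and osteoblasts together), 126 myogenic-like, 86 neutrophil-like, 55 monocyte-like, 36 endothelial-like, 32 erythroid-like and 30 osteoclast-like. Another 30 nuclei carried markers of B cells and of NK/T cells together and are called Pax5-led here, after a leading gene, and 266 nuclei stayed without a name. The 5 markers of injury-induced fibrogenic cells, among them the matrix genes Postn and Col3a1, summed to 7133 UMIs per 1000000 UMIs (CPM) in skeletal lineage-like nuclei and to 89.5 CPM in macrophage-like nuclei. The 8 macrophage markers summed to 3382 CPM in macrophage-like and to 129.6 CPM in skeletal lineage-like nuclei. All 8 had UMIs in both populations. The part of these RNAs from the other population in the values below was not tested.

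The members fell on both sides of this pair of populations. Tgfb2, Tgfb3, Inhba, Tgfbr3, Ltbp1 and Ltbp2 were higher in skeletal lineage-like nuclei, by 17.6-fold to 141-fold. Tgfb1, Tgfbr1 and Tgfbi were higher in macrophage-like nuclei, by 2.69-fold to 5.45-fold, and Tgfbr2 was not called in either direction. A gene was called where the CPM of both populations differed by a fold of at least 2 and the 95% interval of the ratio, which covers counting error only, lay on 1 side of 1. By this rule 6 of the 10 members were higher and 3 lower in skeletal lineage-like nuclei, where 23.1% of the 9978 genes with at least 20 UMIs were higher and 19% were lower. The median log2 ratio was 4.63 over the members and -0.02 over all these genes.

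The sequences before the start sites of 4 of these genes are shown as examples, Tgfb1 and Tgfbr1 from the genes higher in macrophage-like nuclei, and Tgfb2 and Inhba from those higher in skeletal lineage-like nuclei. They were picked after the motif matches had been seen. They are RefSeq sequences of GRCm38.p6 (mm10), 250 bases up to the start site, read 5′ to 3′ on the strand of the gene. Capitals mark 3 short motifs on either strand, the GC box GGGCGG, the TATA box TATAAA and the SMAD core CAGAC.
Tgfb1 (chr7:25686752-25687001, plus strand): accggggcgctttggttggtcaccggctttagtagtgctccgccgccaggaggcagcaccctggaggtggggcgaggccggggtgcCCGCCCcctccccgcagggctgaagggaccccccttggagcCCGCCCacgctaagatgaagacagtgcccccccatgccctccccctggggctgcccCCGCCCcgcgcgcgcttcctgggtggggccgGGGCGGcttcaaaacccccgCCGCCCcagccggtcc
Tgfbr1 (chr4:47352972-47353221, plus strand): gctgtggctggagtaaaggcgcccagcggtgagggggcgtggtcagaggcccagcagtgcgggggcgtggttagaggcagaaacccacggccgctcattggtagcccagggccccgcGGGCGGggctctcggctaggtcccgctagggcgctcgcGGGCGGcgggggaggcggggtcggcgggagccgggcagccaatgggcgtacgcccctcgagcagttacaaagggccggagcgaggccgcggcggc
Tgfb2 (chr1:186705990-186706239, minus strand): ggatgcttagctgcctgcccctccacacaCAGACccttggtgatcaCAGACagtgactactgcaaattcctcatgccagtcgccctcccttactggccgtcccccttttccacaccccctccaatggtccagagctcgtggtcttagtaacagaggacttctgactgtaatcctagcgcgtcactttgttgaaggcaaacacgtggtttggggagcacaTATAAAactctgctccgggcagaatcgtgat
Inhba (chr13:16011601-16011850, plus strand): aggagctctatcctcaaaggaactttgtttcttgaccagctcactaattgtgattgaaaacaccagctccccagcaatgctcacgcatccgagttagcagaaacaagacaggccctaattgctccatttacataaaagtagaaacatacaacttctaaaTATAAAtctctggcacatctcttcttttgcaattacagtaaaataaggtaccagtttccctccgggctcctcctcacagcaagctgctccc

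Tgfb1 held 5 GC boxes and Tgfbr1 held 2, with no TATA box in either window. Tgfb2 held a TATA box 31 bases and Inhba 91 bases before the start site, with no GC box, and Tgfb2 also held the SMAD core 2 times. The motifs did not split the members by side. Ltbp2, higher in skeletal lineage-like nuclei, held 2 GC boxes and no TATA box, both entries of Ltbp1 and a further entry of Tgfbr1 held neither, and Tgfbi held 1 GC box. Over all 32851 RefSeq promoters and the same 250 bases, 32.7% held the GC box, 12.4% the TATA box and 42.2% the SMAD core. The AP-1 site TGANTCA, held by 6.75% of them, was in none of the 10 promoters found for 8 of the members. No entry was found for Tgfb3 and Tgfbr3. These matches describe the letters of the windows and were not tied to the levels.

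Tgfb1, on chr7:25687002-25705077 (mm10, plus strand), encodes the TGF-beta best known from platelets, leukocytes and bone matrix. It was measured at 115 CPM (96.8 to 135, 146 UMIs) in macrophage-like nuclei and at 42.6 CPM (30.9 to 57.1, 44 UMIs) in skeletal lineage-like nuclei, 2.69-fold lower (1.91 to 3.86). The highest level was in erythroid-like nuclei, at 185 CPM (126 to 263), followed by monocyte-like nuclei at 174 CPM (116 to 251). A single erythroid-like nucleus held 10 of the 31 UMIs of that population, and the level without it was not taken. The intervals of erythroid-like and monocyte-like nuclei overlapped, and that of the monocyte-like nuclei overlapped that of the macrophage-like nuclei. The erythroid-like nuclei had Kel, Hba-a1, Rhag and Slc4a1, genes of red cell precursors, among their 10 leading genes and the erythroid list at 753 CPM, while the immune and macrophage marker lists stood at 4607 CPM and 1852 CPM in them. The part of macrophage RNA in their value was not tested. Tgfb1 was low in myogenic-like nuclei, with 31.3 CPM (20.8 to 45.3). Of all its UMIs, 43.3% were in macrophage-like nuclei, which held 29.4% of all UMIs.

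Tgfb2, on chr1:186622792-186705989 (minus strand), encodes the isoform known from mesenchyme and the developing skeleton. Skeletal lineage-like nuclei had 222 CPM (194 to 252, 229 UMIs) and macrophage-like nuclei 1.57 CPM (0.190 to 5.67, 2 UMIs), a ratio of 141 (38.6 to 1172). A single nucleus held 97 of the 229 UMIs. Without it the level was 129.8 CPM and the ratio 82.6 (22.4 to 689), and with each nucleus weighted equally the ratio was 64.1. Myogenic-like nuclei came next, with 95.1 CPM (75.9 to 118). The interval of the ratio of skeletal lineage-like to myogenic-like nuclei, 2.33 (1.81 to 3.03), lay above 1. That ratio includes the nucleus with 97 UMIs and was not taken without it. Within the myogenic-like nuclei, the 26 nuclei with the satellite cell marker Pax7 among their leading genes had 236 CPM (173 to 315). The 100 nuclei led by the fibre genes Trdn and Ttn had 55.8 CPM (39.7 to 76.2), without overlap of the intervals. The interval of the Pax7 nuclei overlapped that of all skeletal lineage-like nuclei. Without the nucleus with 97 UMIs the skeletal lineage-like level, 129.8 CPM, lay below the interval of the Pax7 nuclei. The level of the Pax7 nuclei without their own top nucleus was not taken.

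Tgfb3, on chr12:86056745-86079041 (minus strand), encodes the third isoform, which chondrogenic cultures are commonly given. It was at 165 CPM (142 to 192, 171 UMIs) in skeletal lineage-like nuclei and at 9.42 CPM (4.87 to 16.5, 12 UMIs) in macrophage-like nuclei, a ratio of 17.6 (9.79 to 34.6). Of the 12 UMIs in macrophage-like nuclei, 6 were in 1 nucleus. Myogenic-like nuclei had 82.8 CPM (65.0 to 104), with 78.6 CPM in fibre nuclei and 97.6 CPM in Pax7-expressing nuclei, whose intervals overlapped. Its gene overlaps that of Ttll5 on the opposite strand over 5149 bases.

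Inhba, on chr13:16011851-16031621 (plus strand), encodes the beta A chain that forms activin A. It was the ligand gene with the fewest populations above 0. Skeletal lineage-like nuclei held 63 UMIs, 91.3% of all its UMIs, at 61.0 CPM (46.8 to 78.0), against 2 UMIs and 1.57 CPM (0.190 to 5.67) in macrophage-like nuclei, a ratio of 38.8 (10.3 to 327). Of the 63 UMIs 19 were in 1 nucleus, and without it the ratio was 27.4 (7.15 to 233). No UMI was found among the 893975 of myogenic-like nuclei, which allows up to 3.36 CPM by a floor of 3 UMIs (the upper bound of the Poisson interval was 4.13 CPM), nor in monocyte-like, neutrophil-like, endothelial-like, osteoclast-like, erythroid-like or Pax5-led nuclei. At their depth this floor ranged from 14.6 CPM in osteoclast-like to 51.2 CPM in Pax5-led nuclei.

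**Figure D1:**
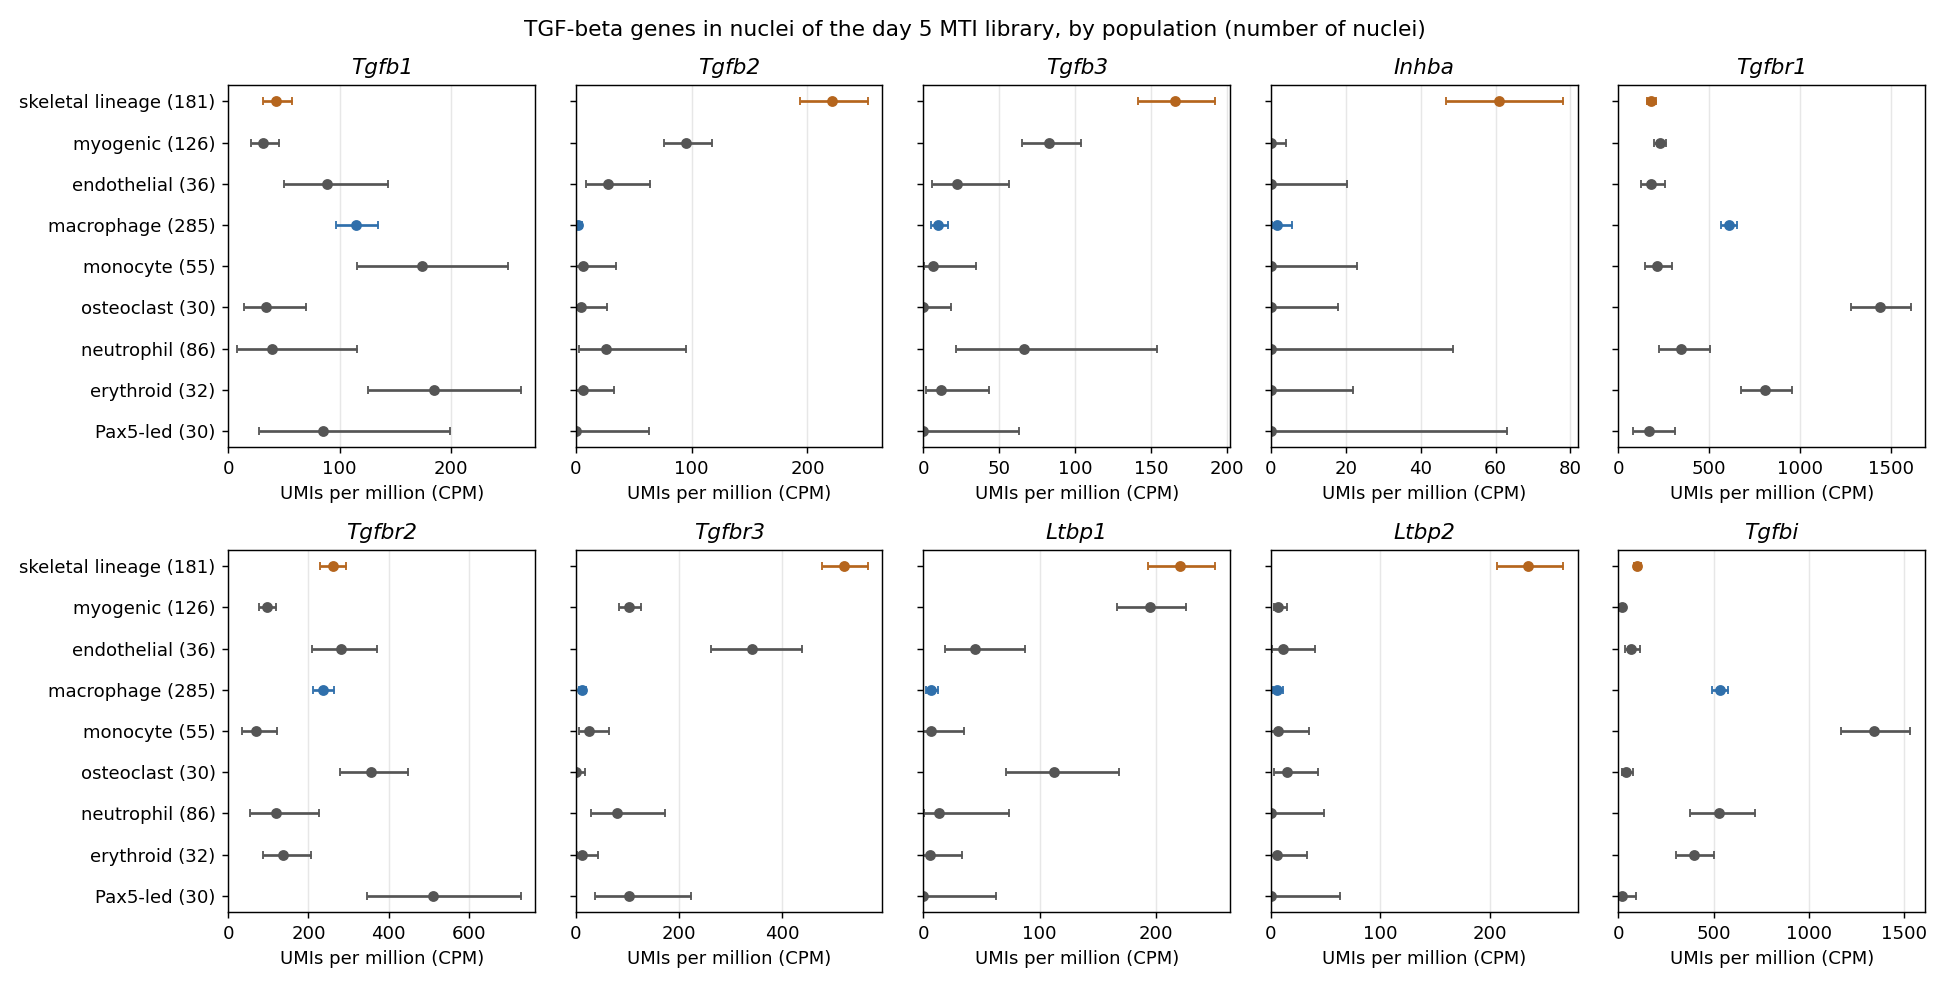
Level of each of the 10 genes in the day 5 MTI library, in CPM on linear axes that differ between panels, for 9 populations with their numbers of nuclei. Points are summed UMIs and bars exact Poisson 95% intervals, with skeletal lineage-like nuclei in brown and macrophage-like nuclei in blue. Skeletal lineage-like nuclei were highest for Tgfb2, Tgfb3, Inhba, Tgfbr3, Ltbp1 and Ltbp2, osteoclast-like nuclei for Tgfbr1 and monocyte-like nuclei for Tgfbi.

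Between genes, levels were compared per kilobase of gene, since intronic reads were counted. In skeletal lineage-like nuclei Tgfb3 had 7.42 CPM per kilobase, Inhba 3.08, Tgfb2 2.66 and Tgfb1 2.36. In macrophage-like nuclei Tgfb1 stood at 6.34 CPM per kilobase, and the other 3 ligand genes were below 1, with 0.423 for Tgfb3, 0.0794 for Inhba and 0.0189 for Tgfb2. Thus the ligand gene with the highest level per length was Tgfb3 in skeletal lineage-like nuclei and Tgfb1 in macrophage-like nuclei. By CPM alone, with all skeletal lineage-like nuclei, Tgfb2 (222 CPM) lay above Tgfb3 (165 CPM). Without the nucleus that held 97 UMIs of Tgfb2, that gene was at 129.8 CPM and lay below Tgfb3. Tgfb3 was at 150 CPM without its own top nucleus. The order of both genes thus depended on the scaling only with that nucleus of Tgfb2 included. Whether UMIs scale with gene length was not tested.

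Both signaling receptors were measured in both populations. Tgfbr1, the type I receptor gene (chr4:47353222-47414931, plus strand), was at 609 CPM (566 to 653, 775 UMIs) in macrophage-like nuclei and at 181 CPM (156 to 209, 187 UMIs) in skeletal lineage-like nuclei, 3.36-fold lower (2.86 to 3.97). The highest level was in osteoclast-like nuclei, at 1438 CPM (1279 to 1612), with a UMI in 27 of the 30 nuclei. Their interval did not overlap that of the erythroid-like nuclei, which came next with 807 CPM (676 to 955). Of the 135 UMIs in erythroid-like nuclei 26 were in 1 nucleus. As for Tgfb1, the part of macrophage RNA in the erythroid-like value was not tested. Tgfbr1 was at 211 CPM (146 to 295) in monocyte-like nuclei.

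Tgfbr2, the type II receptor gene (chr9:116084293-116175360, minus strand), had 260 CPM (230 to 293, 269 UMIs) in skeletal lineage-like and 236 CPM (210 to 265, 301 UMIs) in macrophage-like nuclei. The ratio of 1.10 had an interval of 0.931 to 1.30, which leaves out a fold of 2 in either direction as far as counting error goes. Pax5-led nuclei had the highest level, at 512 CPM (345 to 731), followed by osteoclast-like nuclei at 356 CPM (279 to 447) and endothelial-like nuclei at 282 CPM (210 to 370), with overlapping intervals between neighbors. Monocyte-like nuclei had 68.3 CPM (34.1 to 122), 3.46-fold lower than macrophage-like nuclei (1.91 to 7.01), and for Tgfbr1 they were 2.88-fold lower (2.05 to 4.19). UMIs of both signaling receptors were in 46 of 181 skeletal lineage-like nuclei, 25.4% (19.2 to 32.4, exact Clopper-Pearson interval), and in 100 of 285 macrophage-like nuclei, 35.1% (29.6 to 40.9). The median depths were 3710 and 4041 UMIs, and a nucleus without a UMI may still have held the mRNA.

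Tgfbr3 (chr5:107106570-107289629, minus strand) encodes betaglycan, a co-receptor that presents TGF-beta2 to the signaling receptors and has no kinase of its own. It had the most UMIs of the 10 genes in skeletal lineage-like nuclei, 538, at 521 CPM (477 to 566), against 16 UMIs and 12.6 CPM (7.18 to 20.4) in macrophage-like nuclei, a ratio of 41.4 (25.3 to 73.0). Endothelial-like nuclei had 342 CPM (263 to 439), and the interval of the ratio of skeletal lineage-like to endothelial-like nuclei lay above 1. Pax7-expressing nuclei had 288 CPM (217 to 374), and fibre nuclei 51.5 CPM (36.1 to 71.3). Osteoclast-like nuclei, highest for Tgfbr1, held no UMI of Tgfbr3 among 205125, which allows up to 14.6 CPM by the same floor.

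Ltbp1 (chr17:75005568-75392512, plus strand) encodes a protein that binds the latent TGF-beta complex and ties it to the matrix. Its level was 221 CPM (193 to 251, 228 UMIs) in skeletal lineage-like and 6.28 CPM (2.71 to 12.4, 8 UMIs) in macrophage-like nuclei, a ratio of 35.1 (17.5 to 82.3). Myogenic-like nuclei had 195 CPM (167 to 226) and overlapped the skeletal lineage-like nuclei. Ltbp2 (chr12:84783212-84876532, minus strand) encodes a relative that lies on microfibrils and does not bind latent TGF-beta. It was at 235 CPM (206 to 267, 243 UMIs) against 5.50 CPM (2.21 to 11.3, 7 UMIs), a ratio of 42.8 (20.4 to 108), and at 6.71 CPM (2.46 to 14.6) in myogenic-like nuclei. Skeletal lineage-like nuclei held 89.0% of the UMIs of Ltbp2 and 48.8% of those of Ltbp1, while they held 23.8% of all UMIs.

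Tgfbi (chr13:56609523-56639562, plus strand) encodes a secreted matrix protein that binds integrins and was named for its induction by TGF-beta. Its level was 1341 CPM (1168 to 1532, 216 UMIs) in monocyte-like nuclei, 532 CPM (493 to 574, 678 UMIs) in macrophage-like nuclei and 97.7 CPM (79.6 to 119, 101 UMIs) in skeletal lineage-like nuclei. Macrophage-like nuclei were 5.45-fold higher than skeletal lineage-like nuclei (4.41 to 6.78), and monocyte-like nuclei 2.52-fold higher than macrophage-like nuclei (2.15 to 2.94). Of the 5 members with enough UMIs in that pair of populations Tgfbi was higher in monocyte-like nuclei and Tgfbr1 and Tgfbr2 were lower, where 5.34% of 7384 genes were higher and 7.98% were lower. The monocyte list stood at 2961 CPM in monocyte-like nuclei and at 216 CPM in macrophage-like nuclei, and the macrophage list at 1509 CPM and 3382 CPM. Lists of early macrophages (Arg1, Hmox1 and Spp1) and of a late macrophage state were also higher in monocyte-like nuclei, at 3930 CPM against 2225 CPM and at 5649 CPM against 3659 CPM, and Arg1 was among their 10 leading genes beside Vcan and Ccr2. Of the late list (Mrc1, Cd163, F13a1 and Lyve1), Cd163 and Lyve1 had no UMI in monocyte-like nuclei, so its sum there came from Mrc1 and F13a1. Most of it came from F13a1, since the whole macrophage list, which holds Mrc1, had 243 UMIs there and the late list 910. All markers of the late list had UMIs in macrophage-like nuclei. Ly6c2 of the monocyte list had no UMI in monocyte-like nuclei either. These nuclei were thus not set apart from macrophages by every list. Under other filters and with names from the markers of each nucleus the level of Tgfbi in monocyte-like nuclei ranged from 934 CPM to 1946 CPM. Neutrophil-like nuclei had 528 CPM (377 to 719) and were not told apart from macrophage-like nuclei. Myogenic-like nuclei had 21.3 CPM (12.8 to 33.2) and osteoclast-like nuclei 39.0 CPM (16.8 to 76.8).

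**Figure D2:**
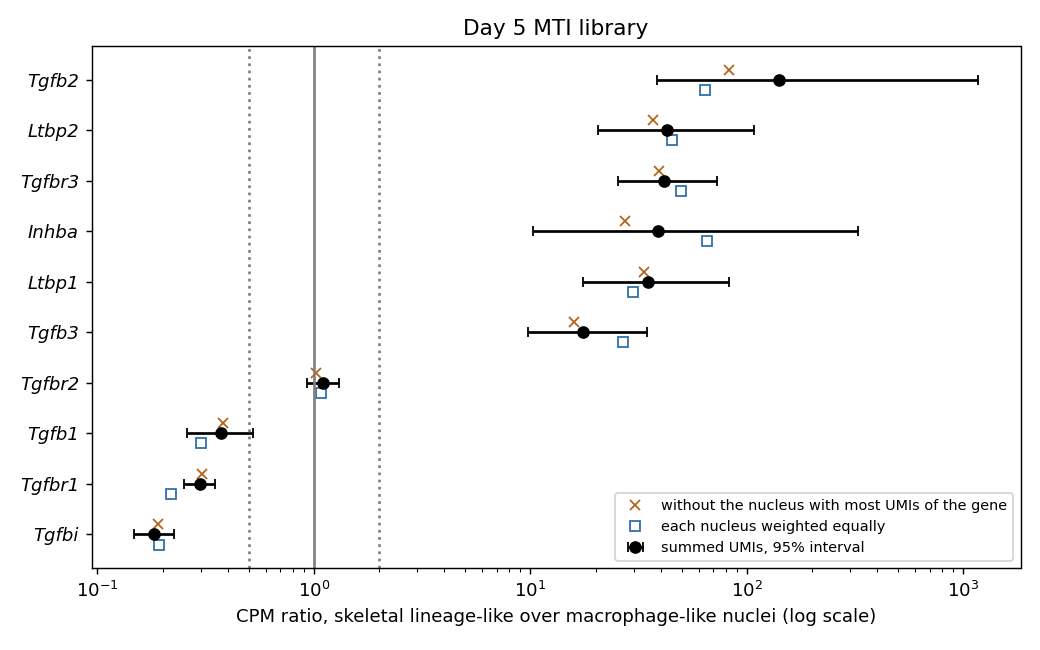
Ratio of CPM in skeletal lineage-like over macrophage-like nuclei of the day 5 MTI library, on a log axis, with exact conditional binomial 95% intervals. The dotted lines mark a fold of 2 in each direction, crosses leave out the nucleus with the most UMIs of the gene and squares weight each nucleus equally. A group of 6 genes lay to the right, between 17.6 and 141, Tgfbr2 lay at 1.10, and Tgfb1, Tgfbr1 and Tgfbi lay to the left.

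Shares of nuclei with a UMI were also taken at equal depth. After thinning every nucleus to 500 UMIs, Tgfb2 was found in 7.18% of skeletal lineage-like nuclei (3.88 to 12.0) and in 0 of 285 macrophage-like nuclei, Tgfbr3 in 18.2% (12.9 to 24.6) and 0.351% (0.00888 to 1.94), and Ltbp1 in 8.29% (4.71 to 13.3) and 0 of 285. The upper bound of the Clopper-Pearson interval of both shares of 0 was 1.29%. Tgfbr1 was found in 23.5% of macrophage-like (18.7 to 28.9) and 6.08% of skeletal lineage-like nuclei (3.07 to 10.6), and Tgfbi in 18.9% (14.6 to 24.0) and 3.87% (1.57 to 7.81). For Tgfb1, the intervals of 5.61% (3.24 to 8.96) and 2.21% (0.605 to 5.56) overlapped. Those of Inhba overlapped too, with 1.66% of skeletal lineage-like nuclei (0.343 to 4.77) and 0 of 285 macrophage-like nuclei (0 to 1.29). Without thinning, Tgfb2 was in 30.9% of skeletal lineage-like and 0.702% of macrophage-like nuclei, and Tgfb1 in 14.9% and 32.6%. Free RNA was not measured in this library, and its part in these shares was not tested.

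**Figure D3:**
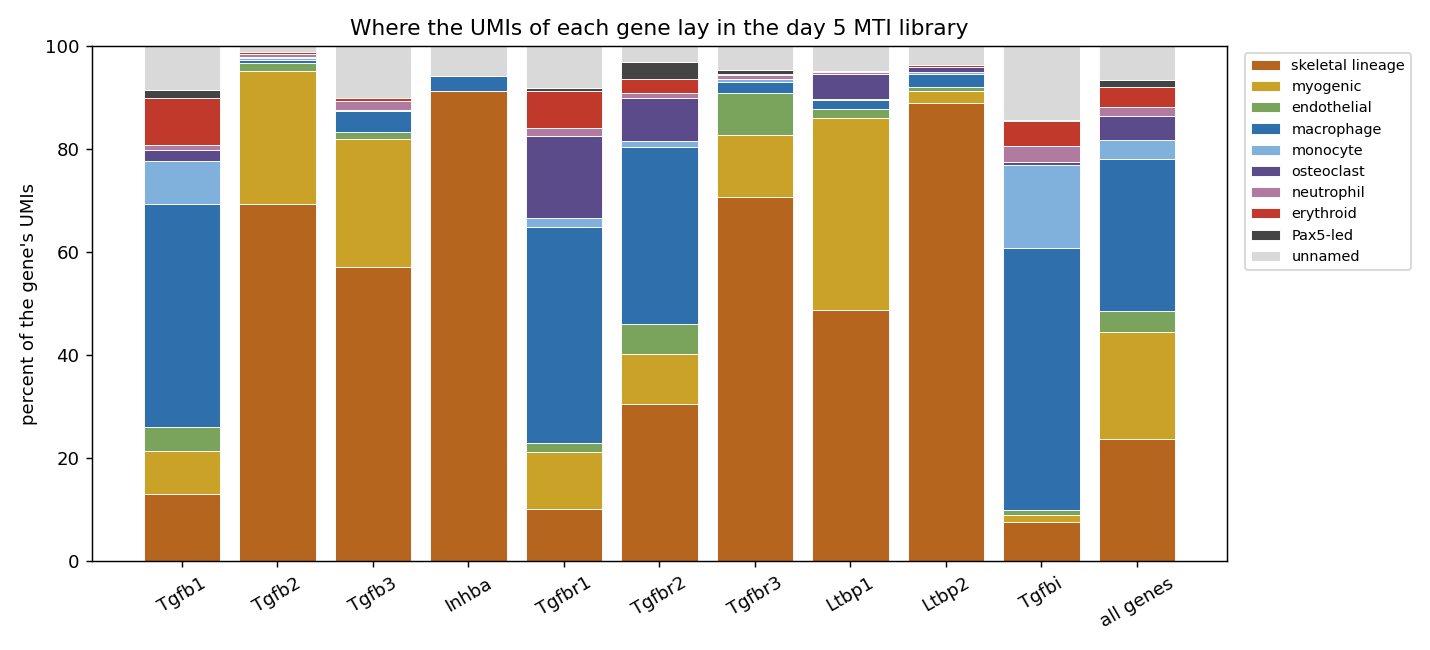
Share of the UMIs of each gene that lay in each population of the day 5 MTI library, in percent, with the share of all UMIs in the last bar. Skeletal lineage-like nuclei held 91.3% of the UMIs of Inhba and 89.0% of those of Ltbp2, and macrophage-like nuclei 50.9% of those of Tgfbi, against 23.8% and 29.4% of all UMIs.

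Skeletal lineage-like nuclei formed 2 clusters, both with markers of injury-induced fibrogenic cells. The first, of 105 nuclei, was led by Ibsp, with Col9a3 and Matn3, all genes of cartilage and bone matrix, also among its leading genes over the second. The second, of 76 nuclei, was led by Pgr and Dpp4, the latter a marker of skeletal stem/progenitor cells, and also by Ttn, with the myogenic list at 595 CPM against 65.9 CPM in the first. Their median depths were 7859 and 1500.5 UMIs, so the cluster and the depth moved together. The part of either in the values was not tested.

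Tgfb2 was the only member called between both clusters, where 5.8% of the 7263 genes with enough UMIs were higher in the Ibsp-led cluster and 3.7% were lower. It was at 242 CPM (211 to 277) in the Ibsp-led and at 87.1 CPM (45.0 to 152) in the Dpp4-led cluster, a ratio of 2.78 (1.56 to 5.47). The nucleus with 97 UMIs lay in the Ibsp-led cluster, and without it the ratio was 1.57 (0.865 to 3.12) and the call was lost. Tgfbr2, Tgfbr3 and Ltbp1 had ratios of 0.525 (0.393 to 0.710), 0.666 (0.535 to 0.835) and 0.577 (0.418 to 0.811), with more per UMI in the Dpp4-led cluster but under a fold of 2. Tgfbr1 went the other way, with a ratio of 1.76 (1.04 to 3.22), also under a fold of 2. Tgfb3 was at 159 CPM in the Ibsp-led and 210 CPM in the Dpp4-led cluster with overlapping intervals.

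All macrophage-like nuclei lay in 5 clusters, whose values below also include a neutrophil-like nucleus. Those led by Plau and by Me1 got their name from the clustering of all nuclei alone, since their markers gave them none within the immune nuclei. Tgfbr1 was at 1328 CPM (1205 to 1460) in the 75 nuclei led by Vcam1 and Dnase1l3, at 593 CPM (495 to 705) in the 39 nuclei led by Mmp13 and Mmp12, and at 382 CPM (312 to 463) in the 69 nuclei led by Plau and Tnf. It was at 289 CPM (223 to 368) in the 46 nuclei led by Me1 and Ptgr1, and at 220 CPM (165 to 287) in the 57 nuclei led by Cd163 and Ccl8. The interval of the Cd163-led cluster alone overlapped that of the skeletal lineage-like nuclei (156 to 209). The call against skeletal lineage-like nuclei was for all macrophage-like nuclei together and was not taken by cluster. Tgfbi had another order, with 1049 CPM (930 to 1179) in the Plau-led cluster, 555 CPM (477 to 643) in the Vcam1-led, 449 CPM (366 to 545) in the Me1-led, 269 CPM (204 to 347) in the Mmp13-led and 232 CPM (176 to 301) in the Cd163-led cluster. The interval of the Plau-led cluster did not overlap those of the other 4. Tgfb1 ranged from 77.4 CPM (46.6 to 121) in the Cd163-led to 171 CPM (129 to 222) in the Vcam1-led cluster. Its intervals in the Cd163-led and Me1-led (47.4 to 126) clusters overlapped that of the skeletal lineage-like nuclei (30.9 to 57.1).

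**Figure D4:**
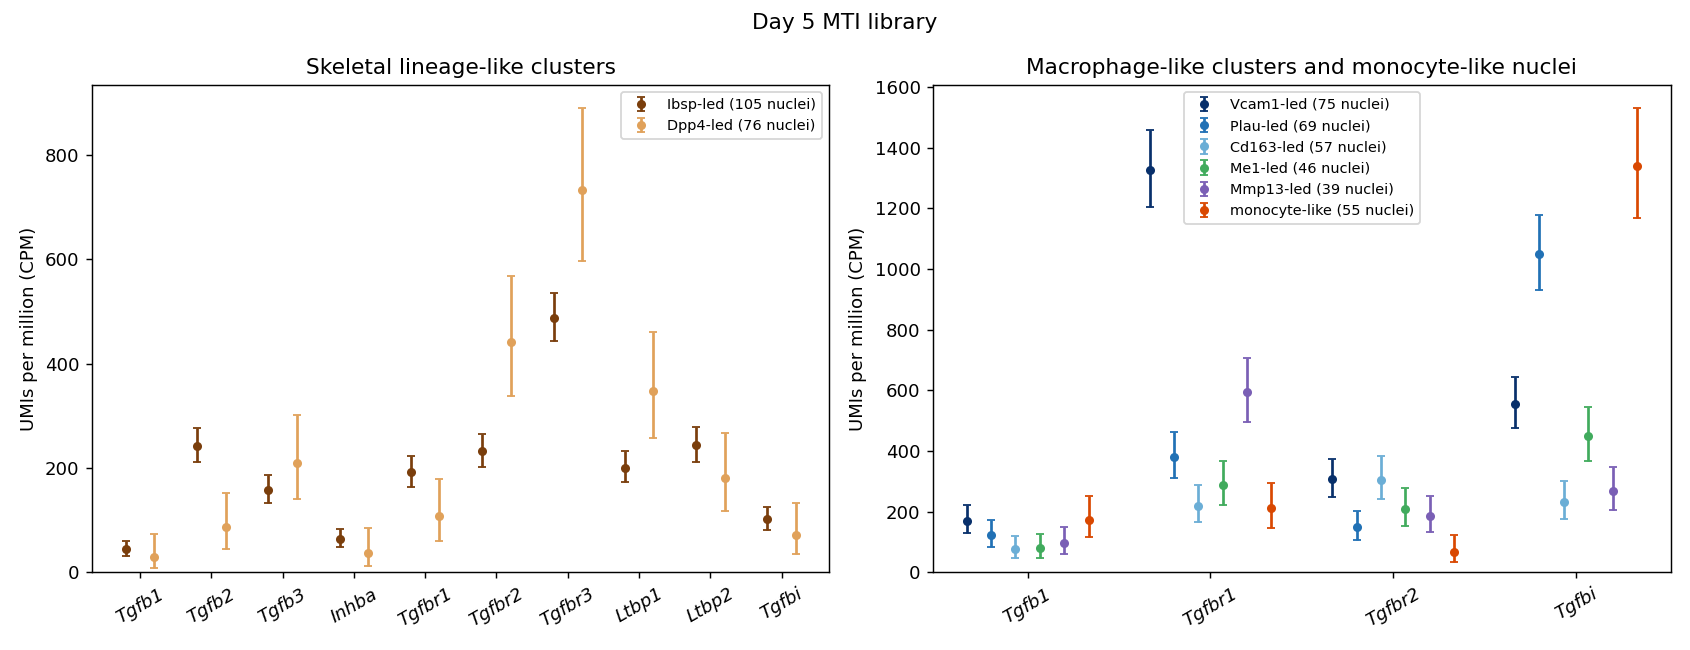
Left, level of the 10 genes in CPM in both skeletal lineage-like clusters of the day 5 MTI library. Right, level of 4 genes in the 5 macrophage-like clusters and in monocyte-like nuclei. Bars are exact Poisson 95% intervals. Tgfbr1 was highest in the Vcam1-led cluster and Tgfbi in monocyte-like nuclei and the Plau-led cluster.

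Among the other genes of the pathway, those of latency and activation fell on both sides, while the called antagonists and target genes were higher in skeletal lineage-like nuclei. Of 12 latency and activation genes 11 had enough UMIs, 7 were higher in skeletal lineage-like nuclei and 4 were higher in macrophage-like nuclei. Over all 9978 genes with enough UMIs, 23.1% were higher and 19% lower in skeletal lineage-like nuclei. The median log2 ratio of the latency and activation genes was 2.15, or 2.42 with the gene without UMIs in macrophage-like nuclei at its lower bound. Fbn1, whose microfibrils carry the LTBPs, was at 1066 CPM against 9.42 CPM, a ratio of 113 (64.5 to 220). Nrros, which anchors latent TGF-beta1 on myeloid cells, was at 546 CPM in macrophage-like and 17.4 CPM in skeletal lineage-like nuclei, 31.3-fold lower (19.7 to 53.2). The integrin genes Itgav and Itgb5, whose products form an integrin known to activate latent TGF-beta, were 3.21-fold (2.71 to 3.83) and 2.67-fold (2.20 to 3.26) higher in macrophage-like nuclei. Lrrc32, the other anchor of latent TGF-beta on cells and named after its value was seen, had 24 UMIs in skeletal lineage-like nuclei and none in macrophage-like nuclei, at least 9.86-fold higher against a floor of 3 UMIs per population. Its call was fixed by the limit of 20 UMIs, since no UMI lay in macrophage-like nuclei.

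The 4 measured genes of the list of antagonists and ligand-binding matrix were all higher in skeletal lineage-like nuclei, where 23.1% of all genes were. Their median log2 ratio was 6.08 over those with UMIs in both and 4.62 with the other 2 at their lower bounds. Dcn and Bgn, small proteoglycans that bind TGF-beta, had 291 CPM and 271 CPM against 3.14 CPM and 5.50 CPM, ratios of 92.7 (35.8 to 342) and 49.3 (23.6 to 124). Fst, which binds activin, and Fmod, a proteoglycan of the same family as Dcn, had 30 and 21 UMIs against none, at least 12.3-fold and 8.62-fold higher. A gene with at least 20 UMIs in skeletal lineage-like nuclei and none in macrophage-like nuclei is always called. The calls of Fst and Fmod were thus fixed by that limit and add nothing to the count.

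Of 10 feedback and target genes 8 were higher in skeletal lineage-like nuclei and none was lower, where 23.1% and 19% of all genes were. Col1a1, which encodes a chain of type I collagen, was at 2153 CPM against 76.2 CPM, a ratio of 28.3 (23.1 to 35.0015). Nox4, an NADPH oxidase gene, had a ratio of 120 (50.9 to 370), and Pmepa1, a feedback inhibitor gene, one of 4.74 (3.64 to 6.24). Smad7 and Skil were not called. Several of these genes encode matrix proteins, and the part of TGF-beta signaling in their levels was not tested.

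Of 8 signal transducer genes, all of which had enough UMIs, none was higher in skeletal lineage-like nuclei and Tgif1, a repressor of SMAD targets, was lower, with 13.5 CPM against 31.4 CPM, where 23.1% and 19% of all genes were higher and lower. Ski had a ratio of 0.982 (0.851 to 1.13), Smurf2 of 0.877 (0.752 to 1.02) and Smurf1 of 1.17 (0.963 to 1.41). Of 6 other receptor genes 5 were measured and 2 were higher in skeletal lineage-like nuclei, Acvr1b with a ratio of 2.21 (1.57 to 3.15) and Acvrl1 with one of 2.01 (1.10 to 3.77), again beside 23.1% of all genes. The activin receptor gene Acvr2a had 265 CPM and 184 CPM, and Eng, an endothelial co-receptor gene, 29.99 CPM and 23.6 CPM. None of the 6 other ligand genes reached 20 UMIs. Inha came nearest, with 19 UMIs in skeletal lineage-like and none in macrophage-like nuclei.

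The genes with the pattern most like that of a member were taken as those with the highest correlation of log2(CPM + 10) over 8 named populations and the Pax5-led nuclei, 9 points of 1 library that share its depth and its RNA background. For Tgfb1 these were Camkk2 (Pearson r = 0.96), Rhoa (0.95) and Itprid2 (0.93). For Tgfb2 they were Prrx1 (0.98), Hoxc8 (0.97) and Mir100hg (0.97), for Tgfb3 Serpinf1 (0.96), Mir100hg (0.96) and Col24a1 (0.95), and for Tgfbi Twf1 (0.98), Ifi204 (0.98) and Slc15a3 (0.95).

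At day 1 post-fracture the question was whether any member stood above the RNA that was free in the droplets. This was measured in 43464 barcodes with under 200 genes, which held 6848386 UMIs. The members were found in it at 18.8 CPM for Inhba to 394 CPM for Tgfbi. Tgfb1 had 37.2 CPM, Tgfb2 28.2 CPM, Tgfb3 23.7 CPM, Tgfbr1 112 CPM, Tgfbr2 47.2 CPM, Tgfbr3 101 CPM, Ltbp1 88.3 CPM and Ltbp2 36.2 CPM. Under the filters of the study 1329 nuclei were myogenic-like, 244 immune-like, 198 skeletal lineage-like and 634 without a name. The immune name rested on 3 markers of neutrophils. The immune list stood at 869 CPM in these nuclei and at 699 CPM in free RNA. The whole neutrophil list was at 567 CPM against 491 CPM, and the macrophage list at 362 CPM against 286 CPM. The monocyte list was at 398 CPM against 460 CPM, and the endothelial list at 1147 CPM against 797 CPM. These lists gave little ground to call these nuclei immune. The early macrophage list was at 1231 CPM in them and at 1404 CPM in free RNA, and the myogenic list at 34811 CPM and 43137 CPM, so these lists stood near free RNA. No macrophage-like nuclei could be set apart.

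In skeletal lineage-like nuclei of day 1, Tgfbr3 and Ltbp2 were above free RNA, 2 of 10 members where 3.79% of 17992 genes were, and none was below it, where 0.656% were. At this depth the members lowest in free RNA could not be called below it even without a UMI. Tgfbr3 had 44 UMIs in 198 nuclei, 546 CPM, 5.41-fold above free RNA (3.90 to 7.35), and Ltbp2 15 UMIs, 186 CPM, 5.14-fold above it (2.84 to 8.65). Both stayed above it without the nucleus with most UMIs of the gene. The other 8 members had 3 to 34 UMIs and intervals that held 1. The median log2 ratio over free RNA was 0.909 over the members and 0.483 over all genes with UMIs in these nuclei. Genes without a UMI in the nuclei were left out, which raises the second median, here and in the day 1 medians below. All 10 members had UMIs, so these pairs of medians cannot be read against each other. The myogenic list stood at 19851 CPM in these nuclei and at 43137 CPM in free RNA. Of the lists behind their name, the fibrogenic list was at 683 CPM against 216 CPM in free RNA. The progenitor list was at 124 CPM against 44.7 CPM. The chondrocyte list had no UMI in them, and the osteoblast list was at 24.8 CPM against 123 CPM.

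In immune-like nuclei 1 of 10 members was above free RNA, where 1.97% of 17976 genes were, and none was below it, where 0.401% were. Here too the members lowest in free RNA could not be called below it even without a UMI. The member above it was Tgfb3, with 6 UMIs in 5 of 244 nuclei, 72.4 CPM and a ratio of 3.06 (1.11 to 6.81). Without the nucleus that held 2 of them the ratio was 2.05 (0.552 to 5.35) and the call was lost. Tgfb1 had 3 UMIs, 36.2 CPM and a ratio of 0.972 (0.199 to 2.87), a difference not detectable at this depth. Tgfbr1 had 18 UMIs and a ratio of 1.94 (1.14 to 3.09), and Tgfbi 47 UMIs and a ratio of 1.44 (1.05 to 1.92), both under the fold of 2. The median log2 ratio over free RNA was 0.129 over the members and 0.369 over all genes with UMIs in these nuclei, which leaves out genes without a UMI there. The members are thus not shown to lie below the typical gene.

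With a mitochondrial limit of 5% in place of 0.5%, 5414 nuclei were kept, of which 429 were immune-like and 375 skeletal lineage-like, and more members stood above free RNA. The immune list was then at 1591 CPM in immune-like nuclei, and the fibrogenic list at 1749 CPM in skeletal lineage-like nuclei against 216 CPM in free RNA. The progenitor list was at 129 CPM in skeletal lineage-like nuclei against 44.7 CPM in free RNA. The chondrocyte list (11.2 CPM against 21.3 CPM) and the osteoblast list (107 CPM against 123 CPM) were not above free RNA. In skeletal lineage-like nuclei 7 of 10 members were above free RNA, where 6.23% of 18060 genes were, and none was below it, where 1.77% were. Ltbp2 was 11.6-fold higher (8.87 to 15.1, 75 UMIs), Tgfbr3 6.19-fold (5.02 to 7.57, 111 UMIs) and Inhba 4.18-fold (2.22 to 7.27, 14 UMIs). Tgfb2, Tgfb3, Ltbp1 and Tgfbr2 were 2.99-fold, 2.62-fold, 2.16-fold and 2.03-fold higher. Without the nucleus with most UMIs of each gene 5 members stayed above it, and the calls of Ltbp1 (1.88, 1.25 to 2.72) and Tgfbr2 (1.68, 0.906 to 2.85) were lost. Tgfb1, Tgfbr1 and Tgfbi were the 3 members not above it. The median log2 ratio was 1.25 over the members and 0.239 over all genes with UMIs in these nuclei.

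In the immune-like nuclei of this filter 4 of 10 members were above free RNA, where 4.68% of 18018 genes were. The median log2 ratio was 0.560 over the members and 0.233 over all genes with UMIs in these nuclei. Tgfbi was 3.27-fold higher (2.83 to 3.76) with 214 UMIs, Tgfb3 3.57-fold (1.91 to 6.16) with 14, Tgfb1 2.27-fold (1.22 to 3.87) with 14 and Tgfbr2 2.04-fold (1.15 to 3.37) with 16. A single nucleus held 8 of the 14 UMIs of Tgfb3, and without it the ratio was 1.54 (0.556 to 3.42). Without the nucleus with most UMIs of each gene Tgfbi alone stayed called, at 3.19-fold (2.76 to 3.68), with Tgfb1 at 1.95 (0.994 to 3.47) and Tgfbr2 at 1.54 (0.788 to 2.73). Ltbp2 was below it, where 1.15% of genes were, with 1 UMI and a ratio of 0.166 (0.00420 to 0.936). In myogenic-like nuclei no member was above free RNA under the stricter filter, where 2.65% of 18276 genes were, with counts from 6 UMIs of Inhba to 191 of Tgfbi. Tgfb1 was below it there, where 6.65% of genes were, with 10 UMIs and a ratio of 0.387 (0.184 to 0.724). With the wider limit no member was above or below it in myogenic-like nuclei, where 1.78% of 18579 genes were above and 3.87% below. The myogenic list stood at 81877 CPM in these nuclei under the stricter filter and at 67662 CPM with the wider limit. Free RNA held this list at 43137 CPM, so the summed muscle markers were also under the fold of 2. The absence of members above free RNA thus cannot show that myogenic-like nuclei lacked their mRNA.

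Of the feedback and target genes, 6 of 10 were above free RNA in skeletal lineage-like nuclei of the wider filter and none was below it, where 6.23% and 1.77% of all genes were. Col1a1 was 3.89-fold (3.13 to 4.79), Pmepa1 4.64-fold (3.37 to 6.28) and Smad7 2.71-fold higher (1.61 to 4.32). In immune-like nuclei 1 of these 10 was above it, where 4.68% of all genes were. Under the stricter filter 1 was above and 1 below in skeletal lineage-like nuclei, where 3.79% and 0.656% of all genes were, and none was called in immune-like nuclei, where 1.97% were above and 0.401% below.

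**Figure D5:**
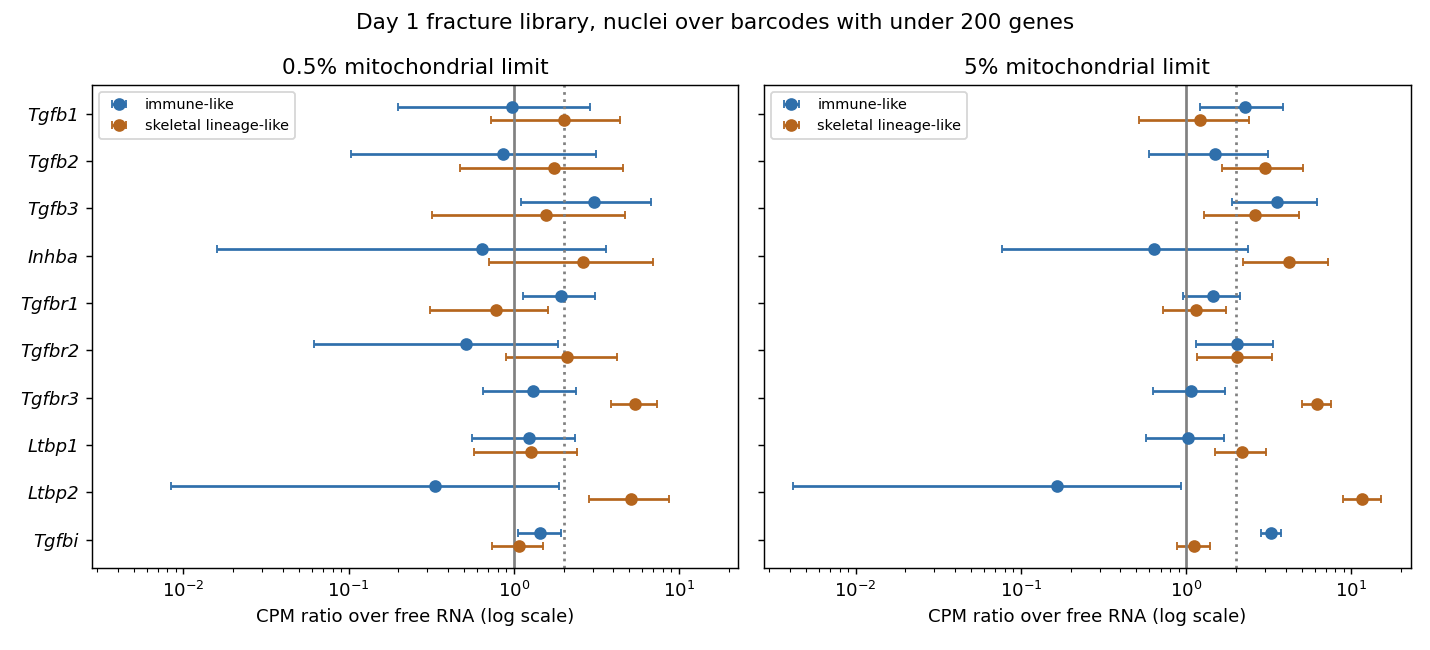
Ratio of CPM in immune-like (blue) and skeletal lineage-like (brown) nuclei of the day 1 fracture library over free RNA, on a log axis, with exact conditional binomial 95% intervals, for the mitochondrial limits of 0.5% (left) and 5% (right). Tgfbr3 and Ltbp2 lay above a fold of 2 (dotted line) in skeletal lineage-like nuclei on both sides, while Tgfbi did so in immune-like nuclei with the wider limit alone.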

How the data were processed

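The 2 snRNAseq libraries were analysed from their UMI counts, which the authors made with Cell Ranger 7.0.1 on mm10, introns included, and deposited without normalization. The deposited tables held no barcode under 72 UMIs at day 1 and none under 500 after MTI. All identifiers were mouse identifiers, although the labels name a human reference. Nuclei with 200 to 5000 genes were kept, with under 0.5% mitochondrial and 2.5% ribosomal UMIs at day 1 and under 5% and 2% after MTI. Each library was clustered with Seurat 5.3.0 in R 4.3.3 on 2000 variable genes, from 20 components at resolution 1.7 for day 1 and from 30 at 1.0 for MTI. Other data of the study were not analysed here.

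A name needed at least 3 markers with a fold of 1.5 over the median of the other clusters and a pooled fold of 2. Clusters in which the share of UMIs of the 10 myogenic markers was above that of the whole library were called myogenic first. Names were withdrawn where other markers or repeat-derived transcripts led, or where shallow clusters lacked a leading marker. These thresholds were set after the clusters had been seen. The members and gene lists were chosen with earlier results of these data known. Genes named were the members and, per list, up to 4 called genes with the most UMIs, then those with the most UMIs. The values of 1 gene of these lists are not reported here. Like patterns needed 100 UMIs.

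UMIs were summed per population and divided by its total (CPM), with exact Poisson, conditional binomial and Clopper-Pearson 95% intervals. Intervals and floors cover counting error only, and nuclei are not replicates. The ratio was tested on simulated data for the MTI comparison, with 9958 genes, 200 of them changed 4-fold. Its intervals covered 95.8% of true ratios, 98.0% of changed genes were recovered and 1.16% of unchanged genes were called. These shares describe the simulated counts only. They are not error rates of the calls above, where a single nucleus could hold many UMIs of a gene and no replicate was had. Scrublet in scanpy 1.11.5 scored doublets. GENCODE M21 gave gene positions on mm10 for 32235 of 32285 genes, and its release may differ from the authors'. Python 3.11.15, numpy 2.4.6 and scipy 1.17.1 were used.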

Additional observations from a re-analysis of the deposited data

How the results depend on the processing

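In the MTI library the counts of 6 and 3 members stayed the same with at least 500 or 1000 genes per nucleus, a mitochondrial limit of 0.5%, a resolution of 2.0, nothing regressed out, pathway genes kept in the clustering, names from the markers of each nucleus, doublet calls removed and a fold limit of 1.5. They also stayed the same with 3 alternatives chosen after seeing the data, equal weights for nuclei, monocyte-like nuclei added to macrophage-like ones and the Ibsp-led cluster alone. The fold limit of 1.5 could not change the counts, since the called differences were at least 2.69-fold and the interval of Tgfbr2 held 1. Doublet removal took out only 3 of 1127 nuclei. With the Dpp4-led cluster alone, 4 members were higher, because Tgfb2 and Inhba then had under 20 UMIs. The share of all genes called under each of these settings is not given here. Of 130 ratios of single members under these settings or without the nucleus with most UMIs of the gene, 120 lay within the interval first given and none changed direction. Of 210 levels under 3 of these settings 31 lay outside their interval, 11 of them in monocyte-like nuclei.

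At day 1 the counts above free RNA depended on the settings. In immune-like nuclei, 1 member under the study's filter became 4 with the wider mitochondrial limit, 2 with pathway genes kept, 2 with free RNA from barcodes under 100 genes, 2 with a fold limit of 1.5, 0 with markers of each nucleus (72 nuclei) and 0 without the nucleus with most UMIs of each gene, the last chosen after seeing the data. In skeletal lineage-like nuclei 2 members became 7 with the wider limit and 1 with markers of each nucleus (8 nuclei). Over all genes, 1.97% and 4.68% were above free RNA in immune-like nuclei under the study's filter and the wider limit. In skeletal lineage-like nuclei these shares were 3.79% and 6.23%. Shares of all genes under the other settings are not given here, so their counts cannot be read against them. The causes were not tested. At a resolution of 0.8 no immune-like population was named, so no value was had. No paired analysis was possible because each condition had 1 library. Depth limits the day 1 values, since 3 UMIs correspond to 36.2 CPM in its immune-like nuclei.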
